A study of Mus musculus with 9 samples.

Results

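Markers of endothelial and stromal cells were followed in RNA from primary cultures of mouse renal tubular epithelial cells, with the question of which other cell types these cultures held. The set has 10 genes, taken from the deposited table by symbol, and was chosen with earlier results of these data known. The endothelial markers are Pecam1, Cdh5, Kdr, Flt1 and Emcn, and the stromal markers are Pdgfra, Pdgfrb, Thy1, Dcn and Lum. All 10 are among the 31167 genes of the deposited table, and 7 of them reached the mean level, 0.5 FPKM across the 9 libraries, that was required for testing and that 13985 genes met. FPKM counts sequenced fragments relative to exon length and library depth. The length that fits the values covers all annotated exons of a gene, 13504 bases for Flt1 and 6228 for Pecam1. Levels of different genes can therefore be compared on it only roughly. Pdgfra, Dcn and Lum lay below the filter and are given by their values only.

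The cells came from kidneys of C57BL/6 mice and were compared in 3 groups of 3 libraries. Sham cells were the negative controls. H/R cells spent 6 h in medium without glucose at 1.0% O2 and then 18 h in complete medium with reoxygenation, a culture model of ischemia and reperfusion. EGR1OV cells had been transfected with an overexpression plasmid for Egr1, a zinc finger transcription factor, and the labels give the H/R treatment to the H/R group alone. Per the study's methods the plasmid carries a CMV promoter, which is active in many cell types and does not limit expression to tubular cells. No empty-vector group was among those compared, so a difference of EGR1OV cells that comes from Egr1 and one that comes from transfection cannot be told apart. The labels do not say that replicates came from separate animals or cultures, so the p-values measure the spread between these libraries, which may be technical. Sham libraries served both comparisons against Sham.

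Depth recovered from the values was 16183617 to 18384022 reads per library. Egr1 stood at 6.09 to 6.91 FPKM in Sham, 7.48 to 8.57 in H/R and 40.1 to 45.7 in EGR1OV, where it did not overlap the other groups. The tubular identity was checked on a list of 18 epithelial genes, 17 of which were in the table and 10 of which were tested. Krt8, a simple-epithelium keratin, averaged 1010 FPKM in Sham, and Cdh1, the epithelial cadherin, averaged 86.2. Umod, made by the thick ascending limb, was at 0 in all 9 libraries, and Slc34a1, the phosphate transporter of the proximal tubule, had at most 3 reads in any library. Those last 2 genes were named after their values were seen. The small RNA Gm23935 varied widely within each group, over 1700 to 19600 FPKM in Sham, 3800 to 21700 in H/R and 1490 to 9380 in EGR1OV, and the counts of marker genes called did not change when it entered the fit as a covariate.

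Endothelial cells line blood vessels and are held together by junction proteins such as VE-cadherin, and they respond to VEGF through receptor tyrosine kinases. Stromal cells of the kidney, the interstitial fibroblasts and the pericytes along capillaries, carry PDGF receptors and deposit a matrix that includes the small leucine-rich proteoglycans decorin and lumican. A primary culture of kidney tubules can carry such cells along from the tissue. Several of these genes are not restricted to one lineage. Pecam1 is also found on leukocytes and platelets, Emcn also on some blood progenitors, and Thy1 also on T cells and neurons.

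Of the endothelial markers, Cdh5 had the highest mean in Sham. Cdh5 (ENSMUSG00000031871, chromosome 8 from 104101625 to 104144511, plus strand), which encodes VE-cadherin of the adherens junction, was at 3.31, 3.43 and 3.50 FPKM in Sham. Emcn (ENSMUSG00000054690, chromosome 3 from 137341067 to 137432185, plus strand) encodes endomucin, a sialoglycoprotein of the endothelial surface, and was at 3.13, 3.47 and 3.56 FPKM. The Sham values of these 2 genes overlapped. Pecam1 (ENSMUSG00000020717, chromosome 11 from 106654217 to 106750628, minus strand), an adhesion molecule of endothelial cell contacts, followed at 1.87, 1.61 and 1.79 FPKM, with no overlap with either. The VEGF receptors were lower still in FPKM, though Flt1 had 623 reads over the Sham libraries and Pecam1 550. Flt1 (ENSMUSG00000029648, chromosome 5 from 147561604 to 147726011, minus strand), which binds VEGF tightly and includes a soluble decoy form, was at 0.982, 0.939 and 0.825 FPKM. Kdr (ENSMUSG00000062960, chromosome 5 from 75932827 to 75978458, minus strand), the main signalling receptor for VEGF in endothelium, was at 0.572, 0.686 and 0.657 FPKM. Each Kdr value lay below each Flt1 value. Gene-level values do not separate the Flt1 forms.

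The stromal markers spanned a wider range. Pdgfrb (ENSMUSG00000024620, chromosome 18 from 61045150 to 61085061, plus strand), the PDGF receptor of pericytes and fibroblasts, was the highest of all 10 genes in Sham, at 3.93, 4.37 and 4.30 FPKM. Thy1 (ENSMUSG00000032011, chromosome 9 from 44043384 to 44048579, plus strand), a lipid-anchored surface glycoprotein of fibroblasts, was at 0.873, 0.881 and 0.890 FPKM, within the range of Flt1. Its coefficient of variation in Sham was 0.955%, smaller than the 15% that counting alone gives at 43 to 46 reads, so the closeness of these 3 values says little about the spread. Pdgfra (ENSMUSG00000029231, chromosome 5 from 75152292 to 75198215, plus strand), a receptor that marks fibroblasts more than pericytes, was at 0.237, 0.137 and 0.199 FPKM. It averaged 4.6% ± 1.44 (SD, n = 3) of the Pdgfrb level in Sham. Exons of Pdgfra overlap those of 3 other genes over 652 bases, and whether the counting used strand is not given in the sources used here, so its reads are uncertain there. The other 9 genes overlap no exon of another gene.

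The matrix proteoglycans were near or at the limit of detection. Dcn (ENSMUSG00000019929, chromosome 10 from 97479609 to 97518143, plus strand), which encodes decorin, was at 0.0208, 0.0688 and 0.0726 FPKM in Sham, 0.0635, 0.0652 and 0.0193 in H/R, and 0.0619, 0.0524 and 0.0916 in EGR1OV. These levels rest on 2 to 9 reads a library, and the groups overlapped. Lum (ENSMUSG00000036446, chromosome 10 from 97565128 to 97572703, plus strand), which encodes lumican and lies 47.0 kb from Dcn, had no read in 8 libraries and 1 read in EGR1OV library 1. A count of 0 allows up to 3 reads, which for Lum corresponds to 0.0667 to 0.0757 FPKM depending on the library. A difference in Lum was not detectable at this depth, and such limits cover counting error only.

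Coordinates are those of the deposited table, where the positions of all 10 genes equal GENCODE M21 on GRCm38. The submitters' processing notes name mm9, which the table's positions do not follow. All 10 are protein-coding genes.

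**Figure D1:**
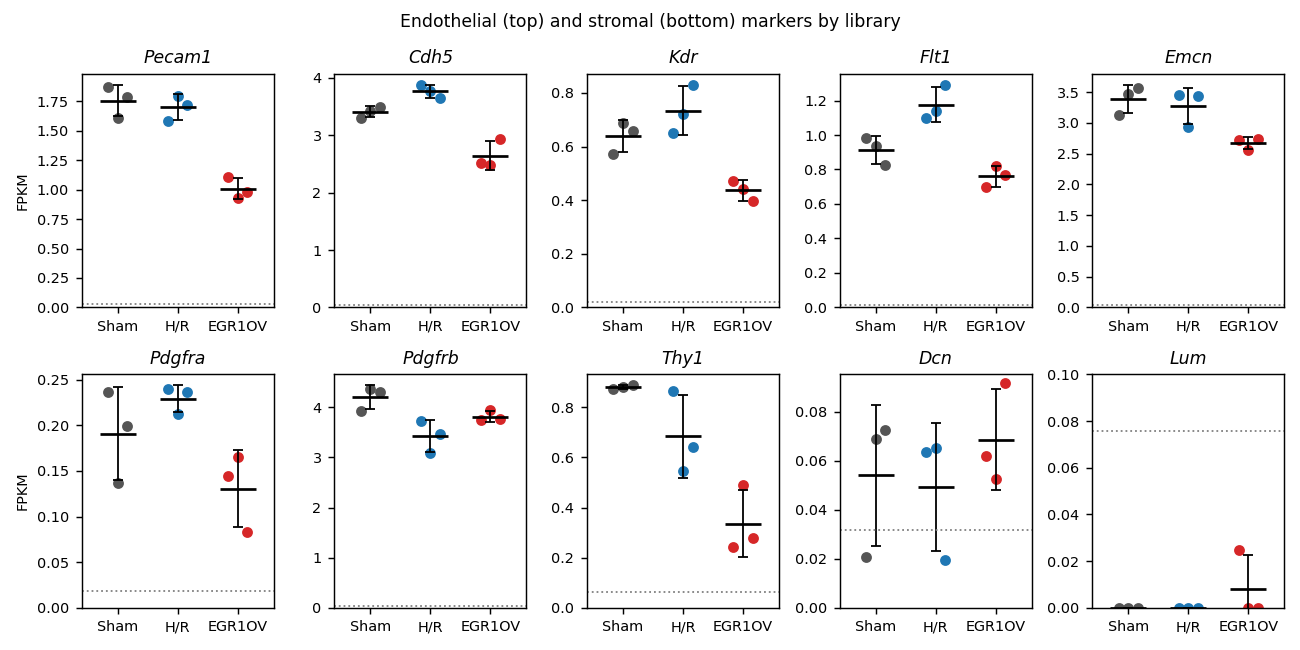
Level in FPKM (vertical axes, each starting at 0) of each of the 10 markers in the 9 libraries, 1 point a library, by group, with the group mean and SD (bars) and a dotted line at the FPKM worth of 3 reads in the library where that is highest. Pecam1 runs from 1.61 to 1.87 in Sham and from 0.933 to 1.11 in EGR1OV, and Lum is above 0 in 1 library.

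RefSeq promoter windows (GRCm38.p6) were found for 4 of the 10 genes, Emcn, Kdr, Flt1 and Pdgfra. They were read for the EGR1 consensus GCGNGGGCG, since Egr1 was the gene overexpressed, and for AGGAAG, a core bound by ETS factors that act in endothelial genes. Both strands were searched over the 250 bases before the start, and the matches of the 2 motifs do not overlap. The 2 VEGF receptors and Emcn are shown because they differ in these letters. Matches are in capitals, on the gene's own strand and 5′ to 3′, where CGCCCNCGC and CTTCCT are the reverse complements. The windows are chr5:147726012-147726261 (minus strand) for Flt1, chr5:75978456-75978705 (minus strand) for Kdr and chr3:137340828-137341077 (plus strand) for Emcn.
Flt1: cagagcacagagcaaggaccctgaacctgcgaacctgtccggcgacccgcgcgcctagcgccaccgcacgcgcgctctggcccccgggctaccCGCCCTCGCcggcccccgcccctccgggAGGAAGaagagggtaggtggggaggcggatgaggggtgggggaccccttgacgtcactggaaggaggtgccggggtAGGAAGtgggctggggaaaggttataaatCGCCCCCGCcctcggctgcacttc
Kdr: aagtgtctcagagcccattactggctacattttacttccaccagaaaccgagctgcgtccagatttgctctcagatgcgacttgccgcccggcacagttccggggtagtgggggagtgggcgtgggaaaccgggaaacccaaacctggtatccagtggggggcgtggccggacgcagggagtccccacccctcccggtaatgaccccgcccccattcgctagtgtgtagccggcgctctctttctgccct
Emcn: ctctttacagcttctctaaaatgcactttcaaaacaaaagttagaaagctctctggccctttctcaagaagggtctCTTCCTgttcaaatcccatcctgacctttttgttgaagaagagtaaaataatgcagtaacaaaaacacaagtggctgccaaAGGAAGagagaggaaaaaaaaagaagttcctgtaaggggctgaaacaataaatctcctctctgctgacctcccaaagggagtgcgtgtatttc

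The Flt1 window held 2 EGR1 matches, at 157 to 149 and 24 to 16 bases before the start, and 2 AGGAAG matches. The Kdr window held neither motif, and the Emcn window held 2 AGGAAG matches and no EGR1 match. The Pdgfra window held neither. Among 32851 promoter windows of this length, 4.7% held the EGR1 consensus and 29.5% held AGGAAG. GC content was 70.4% in the Flt1 window, 61.6% in Kdr, 54.4% in Pdgfra and 40.8% in Emcn. A match is a run of letters and not a measured binding site.

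Next to other genes of these cells the markers were low. Their means over the 9 libraries were at the 38.9 percentile of tested genes for Pdgfrb, the 35.3 percentile for Cdh5 and the 34.1 percentile for Emcn. Pecam1 was at the 19.1 percentile, Flt1 at the 11.3, Thy1 at the 4.27 and Kdr at the 3.45. In Sham, Cdh5 stood at 3.96% ± 0.120 of the level of Cdh1 (SD, n = 3), Pdgfrb at 4.87% ± 0.280 of Cdh1, and Pecam1 at 2.30% ± 0.163 of Epcam, an epithelial adhesion molecule. In bulk RNA such a percentage is a ratio of transcript levels and not a share of cells.

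A wider list of 25 other endothelial genes was also mostly low. Its highest members were Eng, a TGF-beta coreceptor, at 6.29 FPKM in Sham, Ehd3, an endocytic protein of glomerular endothelium, at 2.56, and Plvap, of fenestral diaphragms, at 2.23. By mean over the 9 libraries Eng was at the 52.1 percentile of tested genes, above each of the 10 markers. Of the 25 genes, 11 passed the filter. Cldn5, Lyve1 and Gpihbp1, which mark tight junctions, lymphatic vessels and capillaries, had under 3 reads in every library. In the same list Esam, also of cell junctions, averaged 1.25 FPKM in Sham and Prox1, also of lymphatic vessels, 1.15. Both were named after their values were seen. The summed level of the 25 genes was 24.4 to 24.7 FPKM in Sham, 23.7 to 26.3 in H/R and 17.4 to 18.4 in EGR1OV.

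The stromal picture was uneven between gene groups. Among 20 other fibroblast genes, the matrix genes Fbln2 and Lox averaged 175 and 129 FPKM in Sham, and Col1a1, a chain of type I collagen, averaged 21.1. In the same list Mfap4, Pi16 and Dpt, genes of resident fibroblasts, had under 3 reads in every library, as Lum had. Dcn was 0.258% ± 0.142 of Col1a1 in Sham (SD, n = 3). The highest of 13 pericyte and smooth muscle genes in Sham were Acta2 at 2950 FPKM, Cnn1 at 251 and Mcam at 231. Acta2 is smooth muscle actin, Cnn1 a calponin and Mcam an adhesion molecule. The contractile genes Tagln, named after its value was seen, and Myh11, the smooth muscle myosin heavy chain, averaged 4.37 and 2.83 FPKM. Kcnj8 and Ren1, of pericytes and renin cells, had under 3 reads in every library. The macrophage genes Lyz2, C1qa and C1qb averaged 57.7, 31.1 and 20.8 FPKM in Sham. By mean over the 9 libraries they were the highest of 13 leukocyte genes in the table. Ptprc, the antigen shared by leukocytes and named after its value was seen, averaged 0.470 FPKM. It was below Kdr in FPKM but had 434 reads over the Sham libraries, beside 291 for Kdr. The Schwann cell and neuron list of 6 genes summed to 0.258 to 0.717 FPKM over the 9 libraries, and none of its genes passed the filter.

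**Figure D2:**
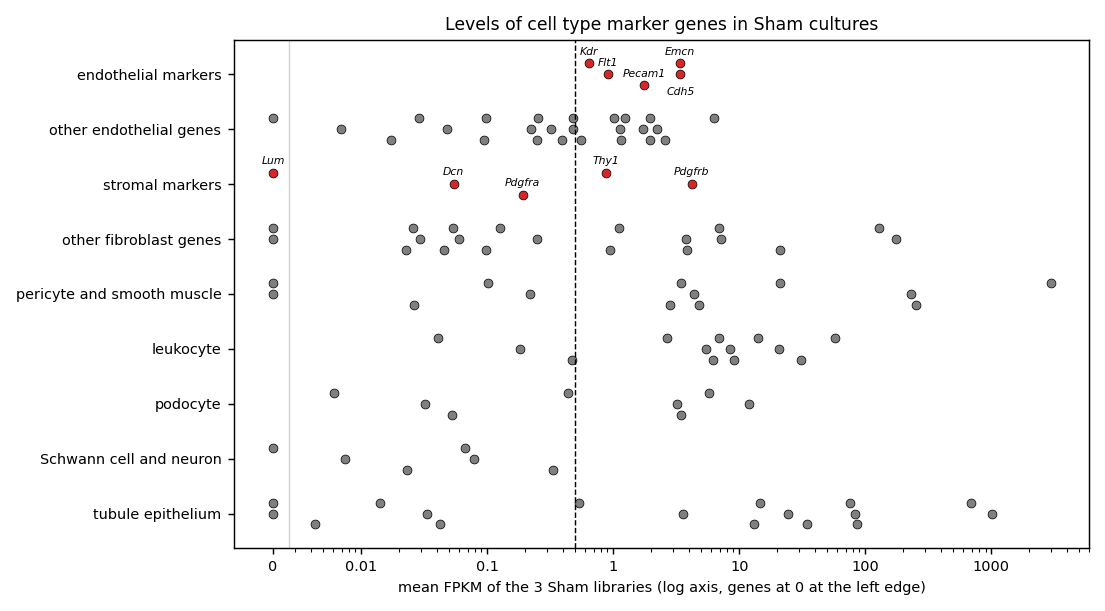
Mean FPKM of the 3 Sham libraries (horizontal log axis, genes at 0 at the left edge) for each gene of 9 cell type lists, 1 point a gene, with the 10 markers in red and named. The dashed line is at the 0.5 FPKM used for the filter. Every endothelial and stromal marker is below 5 FPKM, while all of the other lists except that of Schwann cell and neuron genes reach further right.

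The comparison of EGR1OV with Sham asked what differed in cells transfected with the Egr1 plasmid. Pecam1 and Thy1 fell, and none of the other 5 tested markers passed both thresholds (adjusted p under 0.05 and at least 1.3-fold). All 7 differences were below 0, beside a median of 0.017 over all genes tested. Below the filter, the EGR1OV mean was lower for Pdgfra and higher for Dcn and Lum, on few reads. Across all genes tested, 16.4% were called, 6.51% lower and 9.87% higher in EGR1OV. Fewer cells of a type and less RNA per cell cannot be told apart in bulk libraries.

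Pecam1 was at 1.87, 1.61 and 1.79 FPKM in Sham and at 1.11, 0.933 and 0.983 in EGR1OV. All 3 EGR1OV libraries were below all 3 Sham libraries. The mean went from 1.76 ± 0.130 to 1.01 ± 0.0922 FPKM (SD, n = 3), a ratio of 0.575. The log2(FPKM + 1) difference was -0.46 (SE 0.0668, limma adjusted p = 0.000442). Thy1 was at 0.873, 0.881 and 0.890 FPKM in Sham and at 0.241, 0.490 and 0.278 in EGR1OV. The groups again did not overlap, though EGR1OV library 2 was nearer to Sham than the other 2 were. The Thy1 mean was 0.336 ± 0.134 FPKM in EGR1OV (SD, n = 3), 0.382 of Sham, and the difference was -0.50 (SE 0.1, limma adjusted p = 0.00291). It rests on 12 to 24 reads a library in EGR1OV and 43 to 46 in Sham. Thy1 passed the 0.5 FPKM filter only through its Sham and H/R levels. In the fit without a filter it was also called, at -0.50 (limma adjusted p = 0.00647).

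Cdh5 and Emcn had a smaller difference in the same direction. Cdh5 was at 2.52, 2.49 and 2.93 FPKM in EGR1OV, all below the lowest Sham value of 3.31. Its difference was -0.28 (SE 0.0559, limma adjusted p = 0.00295), under the fold threshold. Emcn was at 2.72, 2.56 and 2.74 FPKM in EGR1OV, below the lowest Sham value of 3.13, with a difference of -0.26 (SE 0.0646, limma adjusted p = 0.0098). Without a fold threshold these 2 genes joined Pecam1 and Thy1, so that 4 of 7 were lower, beside 19.8% of all genes tested.

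The VEGF receptors were not called. Kdr was at 0.473, 0.440 and 0.395 FPKM in EGR1OV, all below Sham, with a mean of 0.436 ± 0.0395 (SD, n = 3). That mean is under the 0.5 FPKM of the filter, which Kdr passed only through Sham and H/R. The Kdr difference of -0.19 (95% interval -0.36 to -0.02) had a limma adjusted p of 0.067. Flt1 was at 0.696, 0.820 and 0.766 FPKM, just under the lowest Sham value of 0.825, and its difference of -0.12 (95% interval -0.28 to 0.04) had an adjusted p of 0.192. Pdgfrb was at 3.74, 3.94 and 3.76 FPKM and overlapped Sham, with a difference of -0.11 (95% interval -0.25 to 0.03) and a limma adjusted p of 0.179. Pdgfra was at 0.144, 0.165 and 0.083 FPKM in EGR1OV, on 14 to 42 reads over the 9 libraries, and overlapped Sham. The EGR1OV values of 6 of the 7 tested markers, all but Pdgfrb, lay wholly below Sham, which held for 24.6% of all genes tested. For each of those 6 the exact two-sided permutation p was 0.1, the smallest that 3 against 3 libraries can give.

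The scale matters for genes this low. Adding 1 FPKM before taking the logarithm shrinks the difference of a gene near or below 1 FPKM. When whole reads were recovered from the FPKM values and tested with limma voom, 3 of the 7 markers were called lower in EGR1OV against Sham, beside 9.18% of all genes in that test. They were Pecam1 at a log2 difference of -0.79 (voom adjusted p = 3.81e-06), Thy1 at -1.43 (0.000159) and Kdr at -0.55 (0.00503). Cdh5 at -0.37 and Emcn at -0.34 stayed under the fold threshold on that scale.

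H/R against Sham asked what hypoxia and reoxygenation changed. None of the 7 tested markers was called by limma at an adjusted p under 0.05 and at least 1.2-fold, while 4.25% of all genes tested were called, 2.65% lower and 1.6% higher. At an unadjusted p under 0.05 there were 2 of 7, Flt1 and Pdgfrb, a threshold that 28% of all genes tested passed, and the voom test on recovered reads called the same 2 genes, beside 4.72% of all genes lower and 2.4% higher in that test.

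Flt1 was at 1.10, 1.14 and 1.29 FPKM in H/R, all above the highest Sham value of 0.982. The mean was 1.17 ± 0.0993 (SD, n = 3), 1.28 times Sham. The difference on log2(FPKM + 1) was 0.18 (95% interval 0.02 to 0.34, limma adjusted p = 0.129), and on recovered reads it was 0.36 (voom adjusted p = 0.01). Pdgfrb moved the other way, at 3.73, 3.09 and 3.47 FPKM, all below the lowest Sham value of 3.93. Its mean of 3.43 ± 0.324 FPKM (SD, n = 3) was 0.817 of Sham, and its difference was -0.23 (95% interval -0.37 to -0.09). The limma adjusted p was 0.0424, but the change was under the fold threshold, and on recovered reads the difference was -0.30 (voom adjusted p = 0.00915).

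The other 5 markers differed less or varied more. Cdh5 was at 3.87, 3.78 and 3.65 FPKM in H/R, above Sham in every library, with a difference of 0.11 (95% interval -0.02 to 0.24, limma adjusted p = 0.234). Kdr was at 0.650, 0.723 and 0.830 FPKM and overlapped Sham (adjusted p = 0.528). Thy1 was at 0.867, 0.545 and 0.640 FPKM, below Sham in every library, with a limma adjusted p of 0.323. Pecam1 at 1.58, 1.80 and 1.72 FPKM and Emcn at 3.45, 2.93 and 3.43 FPKM lay across the Sham range. Their differences were -0.03 for Pecam1 (limma adjusted p = 0.821) and -0.04 for Emcn (0.74), and each turned to just above 0 when 1 H/R library was left out. Pdgfra was at 0.240, 0.212 and 0.236 FPKM in H/R and overlapped Sham. Of the tested markers, Cdh5 and Flt1 lay wholly above Sham, as did 11.8% of all genes, and Pdgfrb and Thy1 lay wholly below, as did 21.8%.

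Set against H/R instead of Sham, EGR1OV libraries were lower in Pecam1 and Cdh5. In this comparison 18.9% of all genes tested were called, 6.94% lower and 11.9% higher in EGR1OV. Pecam1 had a difference of -0.43 (limma adjusted p = 0.000584) and a ratio of means of 0.594. Cdh5, at 3.65 to 3.87 FPKM in H/R and 2.49 to 2.93 in EGR1OV, had a difference of -0.39 (limma adjusted p = 0.000345) and a ratio of 0.703. The Cdh5 call sits at the fold threshold, and without H/R library 1 (-0.37), EGR1OV library 1 (-0.36) or EGR1OV library 2 (-0.36) the gene was no longer called.

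Both VEGF receptors had lower values in EGR1OV than in H/R without passing the fold threshold. Flt1 averaged 1.17 FPKM in H/R cells and 0.760 ± 0.0624 in EGR1OV (SD, n = 3), a difference of -0.30 with a limma adjusted p of 0.00559. Kdr averaged 0.734 and 0.436 FPKM, a difference of -0.27 with a limma adjusted p of 0.0141. Thy1 had -0.33 (adjusted p = 0.02) and Emcn -0.22 (0.0197), also under that threshold. Leaving out H/R library 2 took Thy1 past it, at -0.39, and leaving out EGR1OV library 2 did so at -0.41. Pdgfrb alone had a value above 0, at 0.12 (limma adjusted p = 0.13). On recovered reads 5 of the 7 markers were called lower, beside 9.34% of all genes, with Kdr at -0.75, Flt1 at -0.63 and Thy1 at -1.03. The EGR1OV values lay wholly below H/R for 6 markers, beside 22.0% of all genes, and wholly above for Pdgfrb, beside 36.6%. Pdgfra, below the filter, also did not overlap, at 0.083 to 0.165 FPKM in EGR1OV and 0.212 to 0.240 in H/R, a ratio of means of 0.57 (exact two-sided permutation p = 0.1, the smallest possible).

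**Figure D3:**
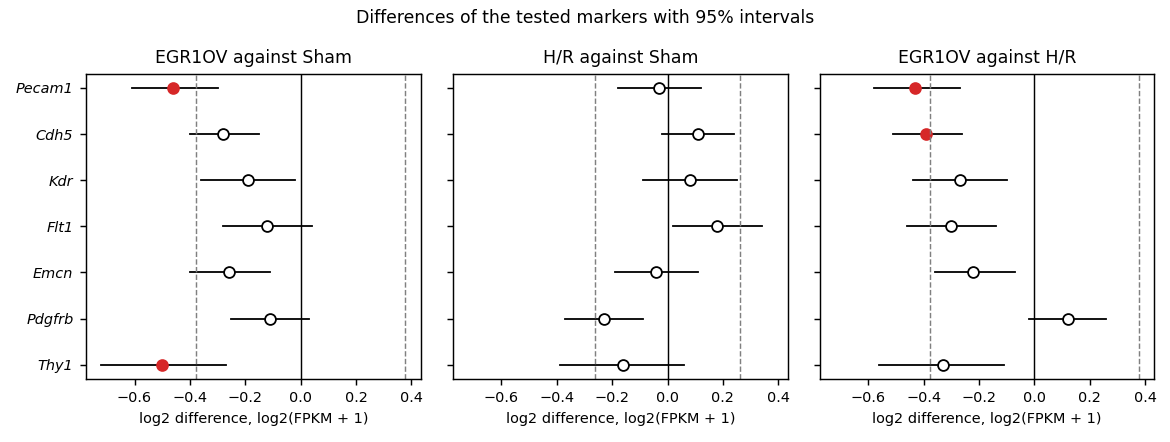
Difference in log2(FPKM + 1) (horizontal axes) with its 95% interval for the 7 tested markers in the 3 comparisons, n = 3 libraries a group. Red points passed the adjusted p and the fold threshold, which is drawn as dashed lines. Pecam1 and Thy1 are red in EGR1OV against Sham, no gene is red in H/R against Sham, and Pecam1 and Cdh5 are red in EGR1OV against H/R.

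Within the set the order of levels differed by group. In Sham, Pdgfrb was highest, followed by Cdh5 and Emcn, Pecam1, Flt1 and Thy1, Kdr, Pdgfra, Dcn and Lum, where only Cdh5 with Emcn and Flt1 with Thy1 overlapped as neighbours. In H/R the means ran Cdh5, Pdgfrb, Emcn, and these neighbours overlapped. Thy1 was level with Flt1 in Sham but overlapped Kdr in H/R and in EGR1OV. In EGR1OV, Pdgfrb was again the highest, with no overlap with Emcn, and Pdgfra overlapped Dcn. Pecam1 was 51.5% of the Cdh5 level in Sham, 45.2% in H/R cells and 38.4% in EGR1OV, while Kdr was 70.3% ± 10.9, 62.5% ± 2.87 and 57.8% ± 8.97 of Flt1 (SD, n = 3). The differences in these ratios were not tested.

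The other endothelial genes bore on whether the markers moved alone. In EGR1OV against Sham, 4 of the 11 tested genes of the wider list fell, beside 6.51% of all genes, and 7 were not called. Of the 11 differences, 10 were below 0. Their median was -0.35, beside -0.26 for the 5 endothelial markers and 0.017 for all genes tested. Adgrl4, an adhesion receptor of endothelium, went from 1.96 to 0.608 FPKM (difference -0.88, limma adjusted p = 1.76e-05). Ptprb, the endothelial phosphatase that acts on VE-cadherin and Tie receptors, went from 1.96 to 0.936 FPKM (-0.61, adjusted p = 8.64e-05). Ecscr, an endothelial surface protein, went from 1.74 to 0.966 FPKM (-0.49, adjusted p = 0.00382). Eng was not called, at 6.29 FPKM in Sham and 6.09 in EGR1OV. In H/R against Sham none of the 11 was called by limma, 2 had an unadjusted p under 0.05, beside 28% of all genes tested, and voom on recovered reads called 1 higher, beside 2.4% of all genes. In EGR1OV against H/R 5 of the 11 fell, beside 6.94% of all genes, with a median of -0.17 beside 0.055 for all genes.

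Genes of the leukocyte and the pericyte and smooth muscle lists were also lower in EGR1OV, with exceptions. Against Sham, 6.51% of all genes tested were called lower and 9.87% higher in EGR1OV, and against H/R 6.94% and 11.9%. In H/R against Sham 2.65% were called lower and 1.6% higher. Of 10 tested leukocyte genes, 9 fell and 1 rose in EGR1OV against Sham, with a median of -1.52. Lyz2 went from 57.7 to 5.46 FPKM and C1qa from 31.1 to 4.50, whereas Cd14, a lipopolysaccharide coreceptor, rose by 1.55 on the same log2 scale. The 13 leukocyte genes in the table summed to 159 to 166 FPKM in Sham, 136 to 145 in H/R and 45.3 to 53.2 in EGR1OV. In H/R against Sham, 2 of the 10 fell, Adgre1 by 0.36 (limma adjusted p = 0.0359) and Lyz2 by 0.29 (0.0191), and 8 were not called. In EGR1OV against H/R, 8 fell, 1 rose and 1 was not called. Since Pecam1 is also made by leukocytes, these values belong beside its fall. Among leukocytes Thy1 is a gene of T cells, and the listed T cell gene Cd3e did not match a symbol of the table. The part of leukocytes in the falls of Pecam1 and Thy1 was not tested. Of 8 tested pericyte and smooth muscle genes, 6 fell and 2 were not called in EGR1OV against Sham, with a median of -0.70. In EGR1OV against H/R 5 of the 8 fell. Acta2 went from 2950 to 1130 FPKM, Cnn1 from 251 to 100 and Myh11 from 2.83 to 0.706, and the 13 genes of the list summed to 3390 to 3510 FPKM in Sham and 1380 to 1480 in EGR1OV. Pdgfrb, the marker tied to the same cells, had a ratio of means of 0.908.

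Fibroblast genes other than the markers did not move as a block in EGR1OV against Sham, where 6.51% of all genes were called lower and 9.87% higher. Of 9 tested, Ogn, a matrix proteoglycan, fell from 3.75 to 0.986 FPKM (difference -1.25, limma adjusted p = 4.25e-06), Col1a2, a chain of type I collagen, rose from 7.22 to 10.2 FPKM, and 7 were not called. In H/R against Sham, 5 of the 9 rose, beside 1.6% of all genes, and 4 were not called. The median of the 9 was 0.26, beside -0.03 for all genes. Ogn rose by 0.44 (limma adjusted p = 0.0178), Lox, which crosslinks collagen, by 0.37 (0.000493) and Col1a2 by 0.32 (0.00235). The stromal markers had values of -0.23 for Pdgfrb and -0.16 for Thy1 in that comparison, neither of them called. The pericyte gene Cspg4 rose by 0.48 in H/R (limma adjusted p = 0.0045), the 1 called of the 8 tested.

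Tubule genes were mixed in EGR1OV against Sham, with 4 of 10 lower, 1 higher and 5 not called. Over all genes tested, 6.51% were called lower and 9.87% higher. Lrp2, the endocytic receptor megalin of the proximal tubule, fell by 1.05, Krt19 by 0.92 and Krt18 by 0.73 on the log2(FPKM + 1) scale. Epcam averaged 76.2 FPKM in Sham, 96.0 in H/R cells and 100 in EGR1OV. Pecam1 was 2.30% ± 0.163 of Epcam in Sham, 1.77% ± 0.0934 in H/R cells and 1.01% ± 0.122 in EGR1OV (SD, n = 3). Cdh5 was 3.96% ± 0.120, 4.14% ± 0.190 and 2.61% ± 0.246 of Cdh1 in the same order. Both references were higher in EGR1OV than in Sham, Cdh1 at 102 FPKM beside 86.2. Pecam1 itself hardly differed between H/R and Sham (-0.03, limma adjusted p = 0.821), while Epcam was called higher (0.33). Krt8 of the same list went from 1010 to 618 FPKM between Sham and EGR1OV. Ratios of group means, EGR1OV over Sham, were 0.575 for Pecam1 and 0.775 for Cdh5. The fall of these percentages therefore depends on the reference, and ratios to keratins were not computed. The podocyte genes Synpo, Podxl and Wt1 averaged 12.0, 5.79 and 3.45 FPKM in Sham, while Nphs1 had under 3 reads in every library. Of 4 tested podocyte genes, 1 fell in EGR1OV against Sham and 3 were not called. In H/R against Sham 1 rose and 2 fell, beside 1.6% and 2.65% of all genes.

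**Figure D4:**
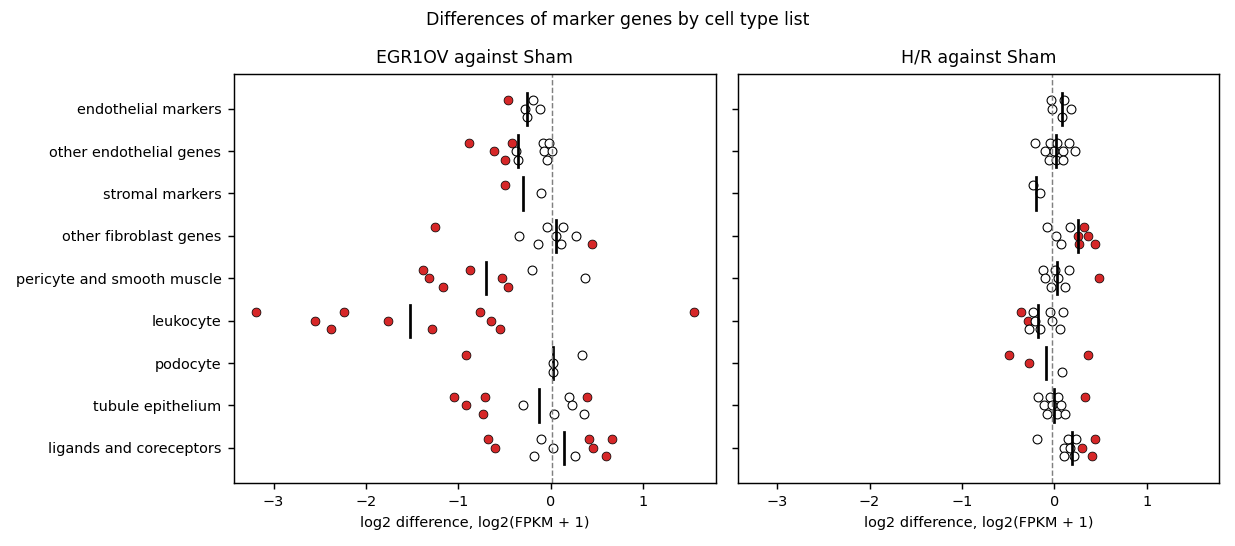
Difference in log2(FPKM + 1) (horizontal axes) of each tested gene in 9 marker lists, for EGR1OV against Sham and H/R against Sham, n = 3 libraries a group. Red points were called, black bars are list medians and the dashed line is the median of all genes tested. The leukocyte list has its median at -1.52 in EGR1OV against Sham, and the endothelial markers have theirs at -0.26.

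The ligands of the marker receptors ranged from near 0 to far above the receptors in FPKM. Pdgfb, a ligand of Pdgfrb, averaged 196 FPKM in Sham, and Vegfa, the ligand of Kdr and Flt1, averaged 25.1. Pgf, a ligand of Flt1, averaged 1.01 and overlapped Flt1, and Vegfd averaged 0.0248, below Kdr and Flt1, both genes being named after their values were seen. Vegfa rose to 33.6 FPKM in H/R (difference 0.41, limma adjusted p = 0.00618) and to 38.7 in EGR1OV (0.60). Vegfc, a ligand of lymphatic receptors that also binds Kdr once processed, rose by 0.44 in H/R and by 0.66 in EGR1OV. Nrp1, a coreceptor for VEGF, rose from 25.1 to 31.0 FPKM in H/R (0.30, limma adjusted p = 0.00078). Pdgfd, a ligand of Pdgfrb, fell from 26.7 to 16.3 FPKM in EGR1OV (-0.68), and Pdgfc, a ligand of Pdgfra, fell by 0.60. Of 10 tested ligands and coreceptors, 4 rose, 2 fell and 4 were not called in EGR1OV against Sham. Over all genes, 9.87% rose and 6.51% fell in that comparison. In H/R against Sham 3 of the 10 rose, beside 1.6% of all genes, and 7 were not called. Both comparisons share the Sham libraries.

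For the 3 markers called in at least 1 comparison, the genes with the most similar pattern over the 9 libraries were listed, by Pearson's r of log2(FPKM + 1) among tested genes averaging 5 FPKM or more. For Pecam1 they were Tmem106b (r = 0.992), 2610008E11Rik (0.99) and Gm28661 (0.989). For Cdh5 they were Actr3 (0.988), Anxa5 (0.987) and Rrp8 (0.985), and for Thy1 Dennd2a (0.983), Dusp8 (0.963) and Camk1 (0.962). The 9 points fall into 3 groups and share libraries, so these values describe likeness in this table and carry no test.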

How the data were processed

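The authors deposited 1 table of FPKM per gene in which each library has its own column. The submitters' processing notes name HISAT2 2.1.0, Bowtie2 2.2.3, TopHat2 and mm9, without their roles. The counter is not given in the sources used here. GENCODE M21 (GRCm38) held 99.8% of the table's identifiers and the same position for 94.6% of its genes. Spreadsheet dates in 26 gene symbols were restored by identifier.

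Groups came from the sample titles. All 9 libraries entered 1 limma fit (version 3.58.1 under R 4.3.3; lmFit, then eBayes with a trend; two-sided) on log2(FPKM + 1), a scale that understates changes of low genes, over the 13985 genes averaging 0.5 FPKM or more. P-values were adjusted by Benjamini-Hochberg over all of them, and every adjusted p is from this fit unless voom is named. Genes were called at an adjusted p under 0.05 and at least 1.3-fold (EGR1OV comparisons) or 1.2-fold (H/R against Sham) on that log2(FPKM + 1) scale. The study used the same folds against Sham, and whether it added a constant before the logarithm is not stated in its text. Folds quoted as ratios are ratios of mean FPKM.

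FPKM values are whole multiples of what 1 read is worth. Of 154355 values of up to 1000 reads, 98.7% were whole within 0.02 reads using M21 exon lengths, and these reads were tested with limma voom scaled to the library total as an alternative. Other alternatives were a pseudocount of 0.1, no filter, a stricter filter at 5 FPKM, median-ratio and quantile scaling, the replicate block, fits without trend or of 2 groups only, other fold thresholds and each library left out. A Gm23935 covariate was added after seeing the data. No replicates were merged, since each pair differed beyond sampling noise. The code was tested on simulated data. Tables and figures used Python 3.11.15 (pandas 2.3.3, numpy 2.4.6, matplotlib 3.10.9, scipy 1.17.1).

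The markers and the lists were chosen with earlier results of these data known. All 10 markers were named, and from each other list up to 3 genes with the highest mean and up to 3 called genes with the largest change in each comparison. For each marker called, the 3 genes most alike in pattern were named. Exceptions are said where they occur, apart from Cd14 and the genes with under 3 reads in every library. Cd14 was named because it was the 1 leukocyte gene that rose. Cd3e and Aqp2, listed as markers, did not match a symbol of the table.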

Additional observations from a re-analysis of the deposited data

How the results depend on the processing

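Directions and calls of single markers were recomputed under each setting of scale, filter, model and libraries. Of 378 such values other than those at another fold threshold, 357 kept their direction and side of the threshold, 15 passed it, 4 lost it and 2 turned. The 2 that turned are in H/R against Sham and close to 0. They are Pecam1 without H/R replicate 1 (0.0031, with -0.07 to 0.0031 over the libraries left out) and Emcn without H/R replicate 2 (0.02, with -0.08 to 0.02).

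The number of markers called moved with the scale. With a pseudocount of 0.1 it was 1 in H/R against Sham, where Pdgfrb was called at -0.29, and 5 in EGR1OV against H/R, beside 765 and 3399 calls over all genes (498 and 1249 of them lower). With voom on recovered reads it was 3 in EGR1OV against Sham, 2 in H/R against Sham and 5 in EGR1OV against H/R. With no fold threshold these numbers were 4, 1 and 6, and at 2-fold 0 of 7 in each comparison, beside unadjusted p under 0.05 in 5, 2 and 6 (52.5%, 28% and 56.5% of all genes). Leaving out each library gave 2 in every case for EGR1OV against Sham, 0 to 1 for H/R against Sham (Pdgfrb at -0.28 without H/R replicate 1) and 1 to 3 for EGR1OV against H/R. A mean of at least 5 FPKM left no marker to test.

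Over all genes, that filter gave 1315 calls in EGR1OV against Sham, 372 in H/R against Sham and 1520 in EGR1OV against H/R, beside 2291, 594 and 2641. No fold threshold gave 6417, 1635 and 7135, and 2-fold gave 484, 11 and 489. Voom called 995 genes in H/R against Sham. Leaving out each library gave 2238 to 2373, 449 to 579 and 2583 to 2703. Quantile scaling took the share of calls that were higher from 60.3% to 45.9% in EGR1OV against Sham, from 37.7% to 56.5% in H/R against Sham and from 63.2% to 42.5% in EGR1OV against H/R. Median-ratio scaling took the last 2 to 57.9% and 52.1%. No scaling moved the median of all genes by over 0.1 or turned the direction of a marker.

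With the replicate number as a block, 2309, 516 and 2654 genes and 2, 0 and 2 markers were called. Deviations of same-numbered libraries correlated at -0.195 to 0.263 over 9 pairs, and 1 of 9 libraries correlated best with its own number. These values cannot tell whether same-numbered libraries share a preparation, which the labels do not say. With the Gm23935 covariate, added after seeing the data, Cdh5 was not called in EGR1OV against H/R (-0.35) and Thy1 was (-0.41), at 2 markers in all. At 14 to 42 reads for Pdgfra, 2 to 9 for Dcn and at most 1 for Lum, depth limits these genes to their levels.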
